A study of Mus musculus with 6 samples.

Results

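Myc, 3 polyamine and folate genes that it is known to activate, and 32 genes that make, modify and assemble ribosomes in the nucleolus were followed in mouse blood progenitors given Hhex. These 36 genes were taken by symbol from a list built by function, which was chosen with earlier results of these data known. All 36 of the 36 listed were present among the 12161 genes of the deposited table. The cells were sorted from bone marrow of C57BL/6 mice as LSK, which means negative for lineage markers and positive for Sca1 and Kit, a fraction rich in stem cells and early progenitors. Both groups carried a MIG retrovirus, which marks a transduced cell with GFP: the control group received MIG alone and has the label wild-type under genotype, and the other received MIG-Hhex, which also carries the homeobox transcription factor Hhex, and has the label Hhex. Culture lasted 2 days with the cytokines stem cell factor and Flt3 ligand (labelled mFlt-3), each 50 ng/mL, plus IL-6 and IL-3, each 10 ng/mL, and RNA came from cells sorted as GFP+. Each group has 3 libraries, named WT3, WT691 and WT703 in both, and the series describes them as biological replicates. The added Hhex is driven by the vector.

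Ribosome production starts in the nucleolus, where RNA polymerase I copies the ribosomal DNA and assembly factors fold, cut and chemically modify the transcript while ribosomal proteins are added. Myc, a transcription factor that works as a dimer with Max, is a textbook activator of these factors, of RNA polymerase I subunits and of polyamine synthesis. Growing progenitors make many ribosomes, and the output of this pathway generally falls as blood cells mature.

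Myc and Max bind the E-box CACGTG and, more weakly, CACGCG. Promoters are shown for some of the genes that fell in the test described below. They are those with the smallest p (Rrp9 and Nolc1), those called in 3 runs with libraries left out (Slc19a1 and Nat10), and those that hold CACGTG (Ltv1 and Wdr43). Utp20 did not pass the test with all 6 libraries, was called as often as Slc19a1 and Nat10 in those runs, and is not shown. Sequences are RefSeq promoter windows of GRCm38.p6, running from 250 bases before to 50 bases after the annotated start and written 5′ to 3′ on the gene's own strand. Capitals mark CACGTG, which reads the same on both strands, or CACGCG, searched also as its reverse complement CGCGTG, and motif positions count the annotated start as base 1. Rrp9, a U3 snoRNP protein, lies on the plus strand (chr9:106477059-106477358) and has no match to either motif; the RefSeq start used for it lies inside the GENCODE gene. Nat10, an RNA acetyltransferase, lies on the minus strand (chr2:103761221-103761520) and also has no match. Slc19a1, a folate carrier, has a pair of windows on the plus strand: the first (chr10:77032489-77032788) has no match, and the second (chr10:77032962-77033261) has CGCGTG at base -143. Nolc1, a nucleolar chaperone, lies on the plus strand (chr19:46075597-46075896), with CGCGTG at base -25. Ltv1, a late small subunit assembly factor, lies on the minus strand (chr10:13193088-13193387), with CACGTG at base 29. Wdr43, an early small subunit factor, lies on the plus strand (chr17:71615965-71616264), with CACGTG at base 18. As for Rrp9, the RefSeq starts used for Slc19a1 (both windows), Ltv1 and Wdr43 lie inside the GENCODE gene.
Rrp9: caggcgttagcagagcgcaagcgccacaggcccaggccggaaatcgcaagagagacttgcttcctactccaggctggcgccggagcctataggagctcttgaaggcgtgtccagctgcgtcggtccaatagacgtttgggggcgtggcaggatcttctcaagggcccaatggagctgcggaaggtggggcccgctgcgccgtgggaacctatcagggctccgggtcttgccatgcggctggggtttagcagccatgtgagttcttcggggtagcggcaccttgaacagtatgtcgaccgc
Nat10: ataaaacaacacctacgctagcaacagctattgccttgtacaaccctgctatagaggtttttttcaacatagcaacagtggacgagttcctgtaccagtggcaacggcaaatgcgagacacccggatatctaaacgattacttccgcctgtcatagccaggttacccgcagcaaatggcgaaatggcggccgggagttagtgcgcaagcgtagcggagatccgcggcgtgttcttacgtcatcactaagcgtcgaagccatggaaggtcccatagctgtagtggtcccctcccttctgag
Slc19a1, first window: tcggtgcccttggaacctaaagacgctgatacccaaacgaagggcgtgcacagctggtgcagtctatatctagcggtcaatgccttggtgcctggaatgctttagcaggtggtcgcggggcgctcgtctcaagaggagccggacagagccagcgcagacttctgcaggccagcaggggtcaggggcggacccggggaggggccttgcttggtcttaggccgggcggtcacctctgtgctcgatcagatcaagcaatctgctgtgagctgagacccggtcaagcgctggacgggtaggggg
Slc19a1, second window: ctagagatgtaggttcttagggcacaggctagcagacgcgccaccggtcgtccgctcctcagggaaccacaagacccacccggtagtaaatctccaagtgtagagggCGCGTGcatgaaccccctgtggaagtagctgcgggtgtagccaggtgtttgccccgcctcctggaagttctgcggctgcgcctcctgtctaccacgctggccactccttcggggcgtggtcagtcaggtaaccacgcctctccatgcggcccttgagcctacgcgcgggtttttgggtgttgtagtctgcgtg
Nolc1: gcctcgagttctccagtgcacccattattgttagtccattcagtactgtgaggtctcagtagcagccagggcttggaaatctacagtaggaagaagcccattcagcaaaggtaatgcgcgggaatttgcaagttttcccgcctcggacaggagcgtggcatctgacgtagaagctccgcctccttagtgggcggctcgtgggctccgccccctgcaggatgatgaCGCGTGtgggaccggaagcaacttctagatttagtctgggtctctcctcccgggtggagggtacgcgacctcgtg
Ltv1: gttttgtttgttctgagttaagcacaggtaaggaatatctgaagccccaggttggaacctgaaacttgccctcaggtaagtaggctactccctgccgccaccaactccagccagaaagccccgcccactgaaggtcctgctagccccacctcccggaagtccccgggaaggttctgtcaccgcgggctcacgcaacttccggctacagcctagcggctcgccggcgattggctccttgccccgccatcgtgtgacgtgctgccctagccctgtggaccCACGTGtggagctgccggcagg
Wdr43: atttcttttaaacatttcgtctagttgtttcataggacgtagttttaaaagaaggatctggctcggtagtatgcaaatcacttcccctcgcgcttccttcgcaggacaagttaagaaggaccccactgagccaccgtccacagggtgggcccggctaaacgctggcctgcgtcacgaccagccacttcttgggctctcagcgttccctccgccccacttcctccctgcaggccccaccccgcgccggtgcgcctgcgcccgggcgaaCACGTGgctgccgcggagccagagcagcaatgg

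Of the 36 genes, 30 had a window. CACGTG stood in 6 of the 30 (20%: Nop2, Ltv1, Utp20, Pes1, Tsr1 and Wdr43), against 12.0% of 9699 measured genes and 8.09% of all 27025 genes with a window. CACGCG stood in 9 (30%), against 20.0% and 10.5%, and one or the other in 14 (46.7%), against 29.2% and 17.2%. Windows were of like base composition, with a median GC content of 60.2% for the members and 60.7% for the measured genes. Of the 8 genes that fell and had a window, Slc19a1, Nolc1, Ltv1 and Wdr43 held a motif, and Rrp9, Nat10, Gnl3 and Nop14 held neither. Shares like those of the members stood in other assembly factors: 21.6% of the small and 19.6% of the large subunit factors with a window held CACGTG, and 54.1% and 47.8% held one or the other. Among the ribosomal protein genes 10.5% held CACGTG and 26.3% one or the other. These are matches of letters only, and binding was not measured here.

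Hhex itself, the gene carried by the virus, had deposited log2 values of 5.18, 5.05 and 5.13 in the MIG libraries and 7.61, 9.34 and 9.06 in the MIG-Hhex libraries, in the order WT3, WT691 and WT703, which is used for every triplet below. The MIG values are those of the cell's own gene. The 2 groups did not overlap, as the labels require, and the WT3 library had the smallest excess. Kit (4.62 to 4.86 in MIG) and Cd34 (7.11 to 7.50) were present throughout. Ly6a, which encodes Sca1, was at 3.18, 6.25 and 6.08 in MIG and at 3.55, 6.21 and 5.89 in MIG-Hhex, so both WT3 libraries stood apart for a gene used to define the cells. The labels place both WT3 libraries on flow cell C3RJFACXX and the 4 others on C5LWPANXX. The depth of the libraries is unknown, since the files give log2 values and no counts. Library medians lay between 3.56 and 3.60.

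With Hhex, 9 of the 36 genes fell (25%) and 0 rose, by limma with a flow cell term and a Benjamini-Hochberg adjusted p under 0.05 over all 12161 genes. The 9 were the spermidine synthase Srm, the folate carrier Slc19a1, the nucleolar proteins Nolc1 and Gnl3, the RNA acetyltransferase Nat10, and the small subunit factors Rrp9, Wdr43, Nop14 and Ltv1. Their log2 differences were small, from -0.20 for Ltv1 to -0.35 for Nat10, that is 1.15-fold to 1.28-fold lower. Over all genes 8.52% were called lower and 9.44% higher by the same rule. Of the 27 members that were not called, 24 had a negative difference, so 33 of the 36 (91.7%) were negative, against 53.9% of all genes. The members' median log2 difference was -0.17, and that of all genes was -0.02. At an unadjusted p under 0.05, 18 members were lower and 0 higher. Counts at an unadjusted p, here and below, have no share of all genes beside them, so they cannot show an excess over other genes. In RNA from a cell population, fewer cells of a type and less of an RNA per cell cannot be told apart.

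**Figure D1:**
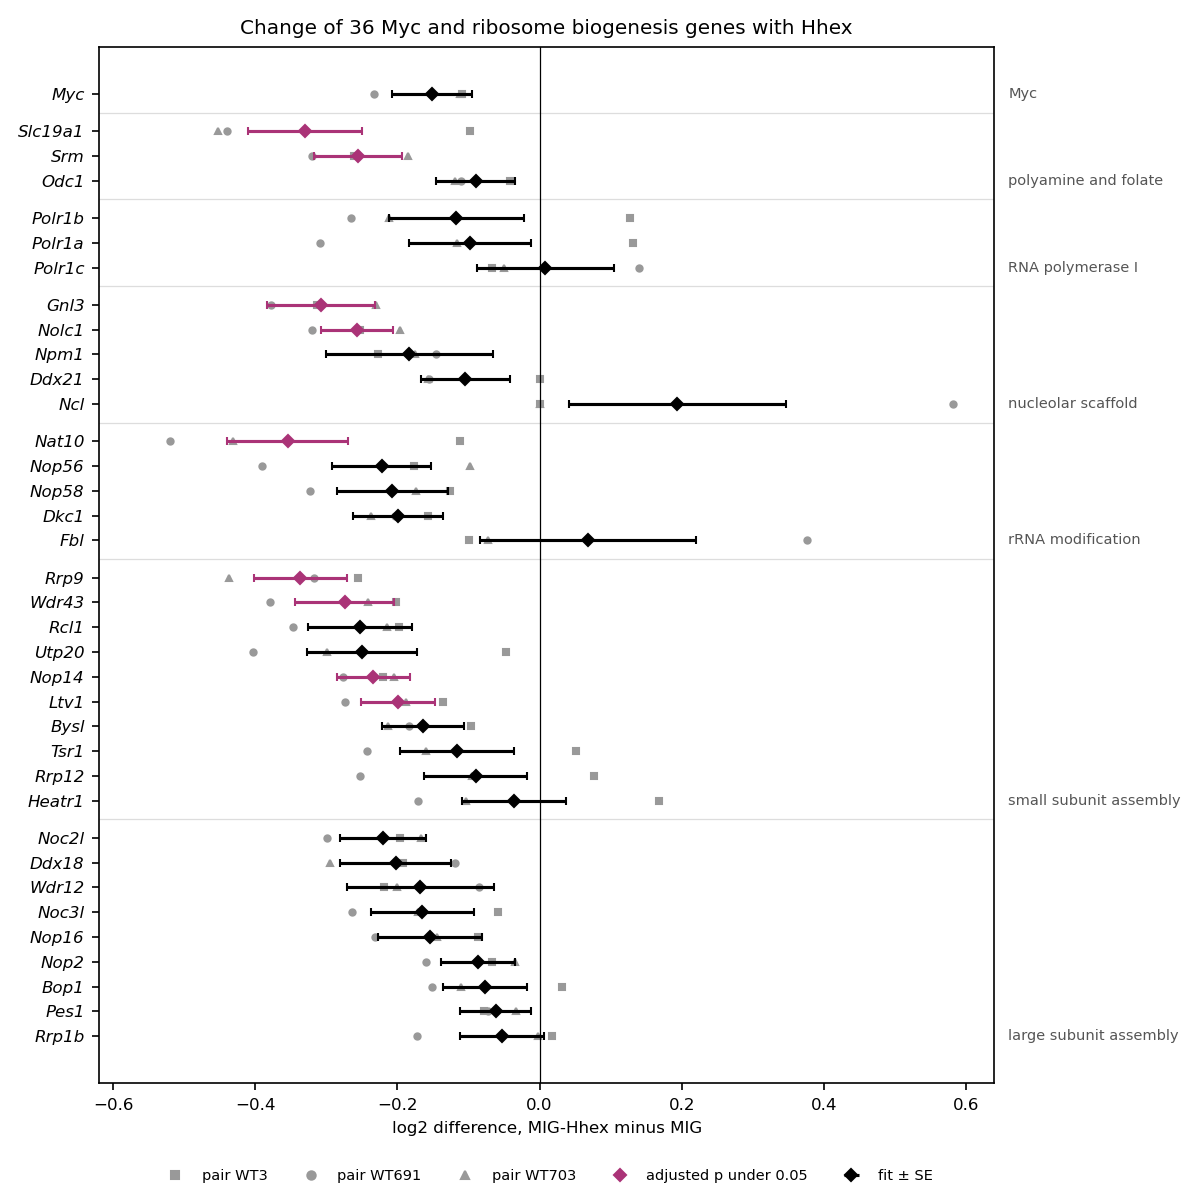
Log2 difference (MIG-Hhex minus MIG) of each of the 36 genes, grouped by role, as a diamond with a bar of ± 1 SE of the limma fit (purple where the test was passed), and the 3 pair differences as small grey symbols. The 9 genes that passed the test lie between -0.35 and -0.20; 33 of the 36 diamonds lie below 0.

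The calls rested on all 6 libraries. With the replicate number as a block in place of the flow cell, 13 members were called lower, the 9 included, against 12.1% of all genes. Within flow cell C5LWPANXX alone (replicates WT691 and WT703) 3 were called lower, against 4.27% of all genes: Slc19a1 (-0.45, limma adjusted p 0.0193), Nat10 (-0.48, adjusted p 0.0198) and Utp20 (-0.35, adjusted p 0.0377). Of these 3, Slc19a1 and Nat10 are among the 9. Each of the 9 runs that left out 1 replicate number or 1 library called between 0 and 3 members lower: 3 (8.33%, against 4.27% of all genes) without replicate WT3, 1 (2.78%, against 4.09%) without WT691 and 0 (against 2.22%) without WT703. Slc19a1 and Nat10 were called in 3 of those 9 runs, Rrp9 in 2, Nolc1 and Gnl3 in 1, and Srm, Wdr43, Nop14 and Ltv1 in 0. The 3 runs that called Slc19a1 and Nat10 were those without WT3 or without 1 of its libraries. With a flow cell term, a lone WT3 library adds nothing to the difference. Those 3 runs are therefore in effect the single fit within C5LWPANXX and do not count as separate evidence. Without the flow cell term 0 members were called lower, against 0.81% of all genes, and without the mean-variance trend 0, against 5.25%; at an unadjusted p under 0.05, 1 and 14 were lower. In the runs without WT691, without WT703, without the flow cell term and without the trend, the share of members called was thus below that of all genes. The same held without the WT703 MIG library (0, against 2.94% of all genes) and without the WT691 MIG-Hhex library (0, against 3.04%). Without the WT703 MIG-Hhex library the share was 2.78%, against 4.79%. The 9 genes kept a negative difference in all of those settings.

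Myc (chr15:61985391-61990374, plus strand, GENCODE M21 on GRCm38) was at 7.51, 7.28 and 7.29 in MIG and 7.40, 7.05 and 7.18 in MIG-Hhex. Within each pair the MIG-Hhex value was the smaller one, but the groups overlapped, since the MIG-Hhex WT3 library exceeded the MIG libraries of the other 2 replicates. The log2 difference was -0.15 (SE 0.06, 95% interval -0.29 to -0.02), and it did not pass the test (limma adjusted p 0.114, unadjusted p 0.0339). Myc stood high among the measured genes, above 95.9% of them by mean level.

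Of the polyamine and folate genes, both Srm and Slc19a1 fell, and Odc1 did not pass the test. Srm (chr4:148591503-148594993, plus strand) makes spermidine from putrescine, and had 8.82, 8.37 and 8.36 in MIG and 8.56, 8.05 and 8.18 in MIG-Hhex. Its log2 difference was -0.26 (SE 0.06, limma adjusted p 0.0357), present in each pair, while the WT3 values of both groups were the highest of their group. Slc19a1 (chr10:77032241-77061002, plus strand), which carries reduced folates into the cell, had 6.06, 5.83 and 5.89 in MIG and 5.96, 5.39 and 5.44 in MIG-Hhex. It fell by 0.33 (SE 0.08, limma adjusted p 0.0365), with pair differences of -0.10 in WT3 and -0.44 and -0.45 in the other pairs, so most of its fall lay on C5LWPANXX. Odc1, ornithine decarboxylase, the rate-limiting step of polyamine synthesis, differed by -0.09 (limma adjusted p 0.295).

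The RNA polymerase I subunits did not pass the test, at adjusted or unadjusted p under 0.05. Polr1b, the second largest subunit, had 5.0, 5.42 and 5.54 in MIG and 5.13, 5.15 and 5.33 in MIG-Hhex. Polr1a, the largest subunit, had 4.22, 5.14 and 5.03 in MIG and 4.36, 4.83 and 4.91 in MIG-Hhex. For both genes the WT3 pair differed by 0.13 and the other pairs were negative, and the WT3 libraries were the lowest of each group. Their log2 differences were -0.12 for Polr1b (limma adjusted p 0.427) and -0.10 for Polr1a (adjusted p 0.465). Polr1c, a subunit shared with RNA polymerase III, differed by 0.01 (adjusted p 0.963), and its sign depended on the processing.

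Among the 5 nucleolar scaffold genes, Nolc1 and Gnl3 fell. Nolc1 (chr19:46075863-46085530, plus strand) binds box C/D and H/ACA snoRNPs, and had 6.93, 7.34 and 7.28 in MIG and 6.68, 7.02 and 7.08 in MIG-Hhex. Its log2 difference was -0.26 (SE 0.05, limma adjusted p 0.0191), with pair differences between -0.32 and -0.20. Gnl3 (chr14:31012433-31019152, minus strand), or nucleostemin, a nucleolar GTPase of stem cells, had 7.07, 7.27 and 7.37 in MIG and 6.76, 6.89 and 7.14 in MIG-Hhex, and fell by 0.31 (SE 0.08, adjusted p 0.0386). In both genes the MIG WT3 library lay below at least 1 MIG-Hhex library, so the groups overlapped although each pair was lower.

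The most abundant members are in the same group and did not pass the test. Npm1, nucleophosmin, took 18.4% of the members' summed linear level and differed by -0.18 (SE 0.12, limma adjusted p 0.315). It has many processed copies in the genome, and how shared reads were counted is not given in the sources used here. Ncl, nucleolin, took 11.3% of that sum and had the only positive difference in the group, 0.19 (SE 0.15, adjusted p 0.412). Its deposited values were 8.28, 8.63 and 9.21 in MIG and 8.28, 9.21 and 9.21 in MIG-Hhex. Its 2 WT3 values were exactly equal, and so were its WT703 values; in all, 61, 47 and 63 genes had equal values within the 3 pairs. Ddx21, an RNA helicase, also had equal WT3 values and differed by -0.10 (adjusted p 0.288).

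**Figure D2:**
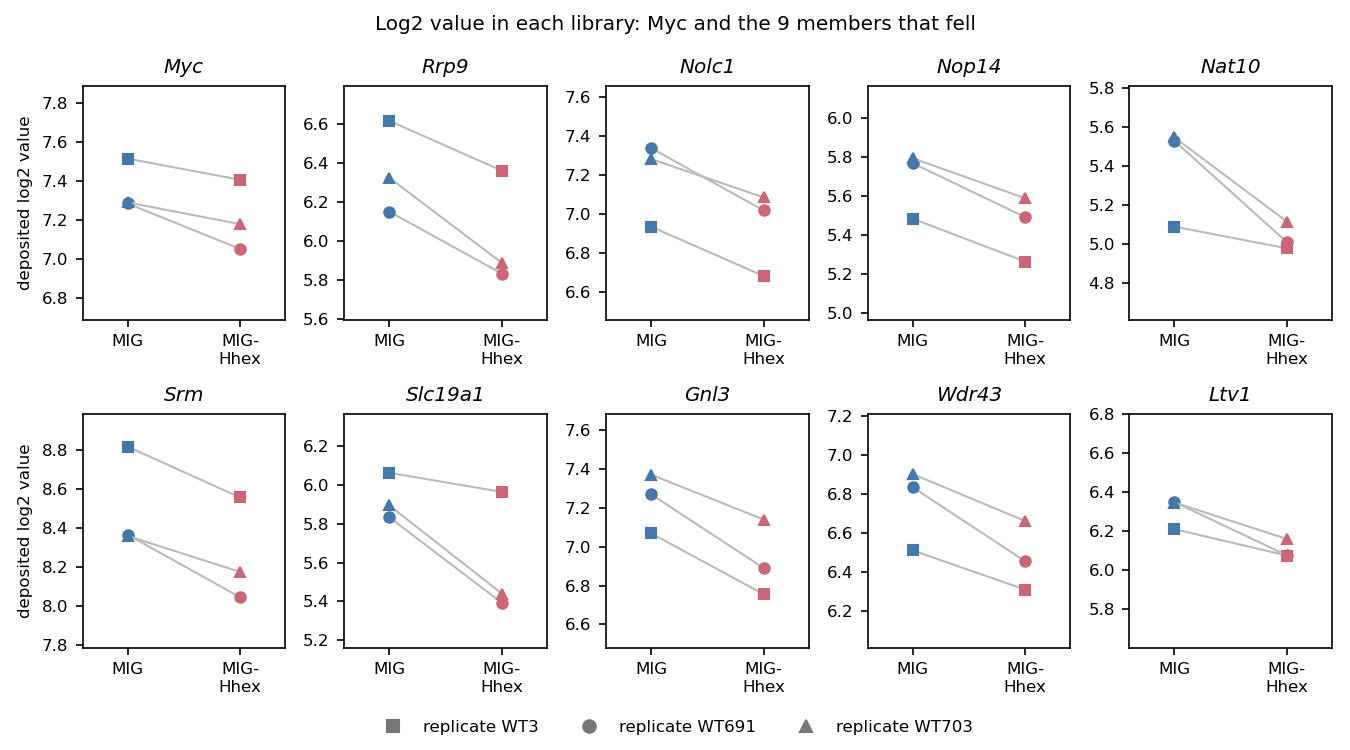
Deposited log2 value in each library for Myc and for the 9 genes that fell, MIG in blue and MIG-Hhex in red, with a line joining the libraries of a replicate. Every line runs downward; the groups are separate only for Ltv1, and the WT3 points sit above or below the others of their group.

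In the rRNA modification group Nat10 (chr2:103721256-103761270, minus strand), which acetylates cytidine in small subunit rRNA, was at 5.09, 5.53 and 5.55 in MIG and 4.98, 5.01 and 5.11 in MIG-Hhex. It fell by 0.35 (SE 0.09, limma adjusted p 0.0357), by far less in the WT3 pair (-0.11) than in WT691 (-0.52) and WT703 (-0.43). The 3 others with an unadjusted p under 0.05 belong to the snoRNP cores. Nop58 and Nop56, the box C/D scaffold proteins, differed by -0.21 (limma adjusted p 0.115) and -0.22 (adjusted p 0.073). Dkc1, the pseudouridine synthase of box H/ACA snoRNPs, differed by -0.20 (adjusted p 0.0777). With the replicate block, Nop58 (limma adjusted p 0.0464) and Dkc1 (adjusted p 0.0253) passed and Nop56 (adjusted p 0.0562) did not. Fbl, fibrillarin, the box C/D methyltransferase, had MIG values from 4.43 to 5.02 and differed by 0.07 (SE 0.15, adjusted p 0.786).

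The small subunit assembly group held 4 of the 9 genes that fell, and all 10 of its members had a negative difference, with a median of -0.22. Rrp9 (chr9:106475963-106485424, plus strand), which holds the U3 snoRNA on the pre-rRNA, had 6.62, 6.15 and 6.33 in MIG and 6.36, 5.83 and 5.89 in MIG-Hhex. It fell by 0.34 (SE 0.07), with the smallest p of the 36 genes (limma adjusted p 0.0179) and pair differences of -0.26, -0.32 and -0.44. Its exons overlap on the opposite strand those of Parp3, a poly-ADP-ribose polymerase, which rose by 0.43 (SE 0.08, limma adjusted p 0.0196). Whether counting used the strand is not given in the sources used here. Nop14 (chr5:34638536-34660148, minus strand), a factor of the early small subunit precursor, had 5.48, 5.77 and 5.79 in MIG and 5.26, 5.49 and 5.59 in MIG-Hhex, with a fall of 0.23 (SE 0.05, adjusted p 0.0269). Its 3 pair differences lay within -0.28 and -0.21, a narrow range beside the spread of its MIG libraries (SD 0.17).

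Wdr43 (chr17:71615895-71659031, plus strand), a part of the complex that joins transcription to early processing, had 6.51, 6.83 and 6.90 in MIG and 6.31, 6.45 and 6.66 in MIG-Hhex. It fell by 0.27 (SE 0.07, limma adjusted p 0.041), with the largest step in pair WT691 (-0.38). Ltv1 (chr10:13178140-13193168, minus strand), an export and late maturation factor of the small subunit, had 6.21, 6.35 and 6.35 in MIG and 6.07, 6.07 and 6.16 in MIG-Hhex. It fell by 0.20 (SE 0.05, limma adjusted p 0.0443), and its groups did not overlap. Such full separation downward was seen in 3 members (Ltv1, Nop2 and Noc2l) and in 11.0% of all genes. Ltv1 was no longer called after quantile normalization (adjusted p 0.0788).

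Of the 6 other small subunit factors, Rcl1, Utp20 and Bysl had an unadjusted p under 0.05. Rcl1, an early processing factor, differed by -0.25 (limma adjusted p 0.0589, with the replicate block 0.0181). Utp20, a large scaffold of the early precursor, also differed by -0.25 (adjusted p 0.0716), and its pair differences were -0.05 in WT3, -0.40 in WT691 and -0.30 in WT703. Bysl, bystin, differed by -0.16 (adjusted p 0.0961). Tsr1, Rrp12 and Heatr1 differed by -0.12, -0.09 and -0.04, with adjusted p from 0.345 to 0.767. These 3 share a positive difference in the WT3 pair and negative ones in both other pairs.

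None of the 9 large subunit assembly genes passed the test, although all 9 differences were negative, with a median of -0.15, and 2 had an unadjusted p under 0.05. Noc2l, which escorts the large subunit precursor out of the nucleolus, had 6.80, 6.92 and 6.95 in MIG and 6.61, 6.62 and 6.79 in MIG-Hhex. Its groups did not overlap, and its difference was -0.22 (SE 0.06). Its limma adjusted p of 0.0505 was just above 0.05, so it was not called, while the replicate block gave 0.0236. Ddx18, an RNA helicase, had 4.59, 4.38 and 4.63 in MIG and 4.40, 4.26 and 4.33 in MIG-Hhex, a difference of -0.20 (SE 0.08, adjusted p 0.123). The 3 genes of the PeBoW complex, which processes the large subunit rRNA precursor, differed by -0.17 (Wdr12, adjusted p 0.294), -0.08 (Bop1, adjusted p 0.395) and -0.06 (Pes1, adjusted p 0.425). Noc3l and Nop16 differed by -0.16 and -0.15, and Nop2, an rRNA methyltransferase, and Rrp1b by -0.09 and -0.05, with adjusted p from 0.162 to 0.572. Whether the 2 subunit groups differ from each other was not tested.

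Pair by pair, 27 of the 36 members were lower with Hhex in WT3, 33 in WT691 and 35 in WT703. Over all genes 52.6%, 53.3% and 52.7% were lower in those pairs. The members' median pair differences were -0.10, -0.25 and -0.17, beside -0.02, -0.03 and -0.02 for all genes. In all 3 pairs 25 of the 36 were lower, against 32.3% of all genes. Ncl was the only member that was lower in no pair. The summed linear level of the 36 genes ran from 4055 to 4700 in MIG and from 3668 to 4232 in MIG-Hhex. Those ranges overlapped, and within each pair the MIG-Hhex sum was the smaller.

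The 78 ribosomal protein genes, whose products the assembly factors put in place, held no called gene. By limma 0 were called in either direction, and 0 had an unadjusted p under 0.05; with the replicate block 0 were called, and 3 were higher and 1 lower at that unadjusted p. Their median difference was 0.10, and 13 of the 78 were negative. Their pair medians were -0.12 in WT3, 0.27 in WT691 and 0.07 in WT703, so the WT3 pair had the opposite sign from the others. In WT3 65 ribosomal protein genes were lower, in WT691 7 and in WT703 15, beside 52.6%, 53.3% and 52.7% of all genes. Without replicate WT691, 43 of the 78 were negative, and without its MIG library alone, 56.

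**Figure D3:**
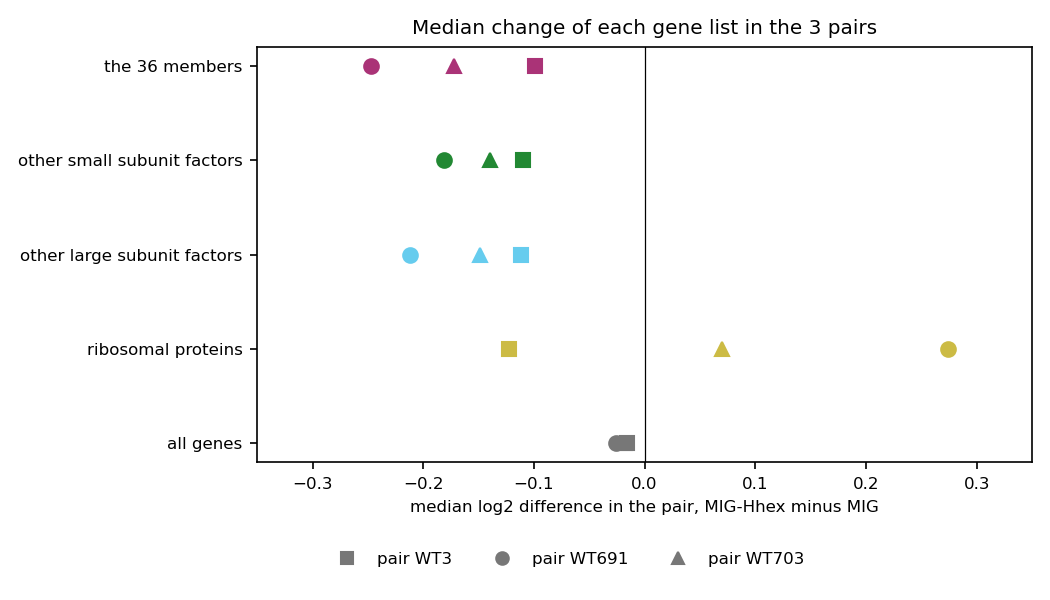
Median log2 difference (MIG-Hhex minus MIG) within each pair for the 36 genes, the other small and large subunit factors, the ribosomal proteins and all genes, with 1 symbol per pair. The members lie at -0.10, -0.25 and -0.17, while the ribosomal proteins lie on both sides of 0, at -0.12, 0.27 and 0.07.

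Other assembly factors, taken from lists by function, also had medians below 0. Of 45 other small subunit factors, 4 fell (8.89%, close to the 8.52% of all genes) and 0 rose, and 43 were negative with a median of -0.14. The 4 were Dimt1, a small subunit rRNA methyltransferase (-0.55, SE 0.12, limma adjusted p 0.0298), Utp14a (-0.26, SE 0.06, adjusted p 0.0363), Pno1 (-0.30, SE 0.08, adjusted p 0.0434) and Cirh1a (-0.25, SE 0.07, adjusted p 0.0476). Dimt1 had 2.56, 2.64 and 2.75 in MIG and 1.93, 2.00 and 2.37 in MIG-Hhex, without overlap. Of 55 other large subunit factors, 8 fell (14.5%), 1 rose and 49 were negative, with a median of -0.16. Those with the smallest p were Znhit3 (-0.28, limma adjusted p 0.015), Rrp8 (-0.30, adjusted p 0.0164) and Nle1 (-0.25, adjusted p 0.0164). The riser, named after its value was seen, was Gltscr2 (0.24, adjusted p 0.0174). With the replicate block 14 of the small (31.1%) and 17 of the large subunit factors (30.9%) fell, against 12.1% of all genes. All 11 other snoRNP genes were negative, and 2 fell (18.2%, against 8.52% of all genes). They were Naf1 (-0.28, limma adjusted p 0.0338), an H/ACA assembly factor, and Nsun5 (-0.31, adjusted p 0.0498), a large subunit rRNA methyltransferase. Within C5LWPANXX alone, and without the flow cell term, 0 of the snoRNP genes fell.

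Of 17 other RNA polymerase I genes 0 passed the test; 16 were negative, with a median of -0.13, and 4 were lower at an unadjusted p under 0.05. With the replicate block 1 of the 17 was called lower. Of 22 RNA polymerase III genes, Polr3gl, a subunit found in one form of that polymerase, rose by 0.43 (SE 0.07, limma adjusted p 0.0111), and 0 fell; with the replicate block 3 fell (13.6%, against 12.1% of all genes). In nucleotide synthesis, Dhodh, the mitochondrial enzyme of pyrimidine synthesis, was the one of 26 genes that fell (-0.32, adjusted p 0.0286; 3.85% of the list, against 8.52% of all genes), and 3 fell with the replicate block (11.5%). Of 24 translation factors, Eif2b3 (-0.46, limma adjusted p 0.0158) and Eef1e1 (-0.38, adjusted p 0.0159) fell, a share of 8.33% that is near that of all genes. With the block 7 did (29.2%, against 12.1%). Within C5LWPANXX alone, and without the flow cell term, 0 genes of the polymerase, nucleotide and translation lists fell. Eef2, the elongation factor that moves the ribosome along, rose by 0.54 (SE 0.12, limma adjusted p 0.0297). Its 3 MIG-Hhex values were exactly equal, at 10.3, and its MIG values were 9.49, 9.79 and 10.04 in MIG.

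Polyamine genes beyond the members held 4 of 11 that fell (36.4%, against 8.52% of all genes). Within C5LWPANXX alone 1 of the 11 fell (9.09%, against 4.27%), and without the flow cell term 0 did. Without the mean-variance trend 3 fell (27.3%, against 5.25%). Dhps, which uses spermidine to make hypusine on Eif5a, had 5.21, 5.03 and 5.05 in MIG and 4.92, 4.75 and 4.70 in MIG-Hhex, and fell by 0.30 (SE 0.05, limma adjusted p 0.0119) without overlap of the groups. Sms, spermine synthase, fell by 0.45 (SE 0.09, adjusted p 0.0177). Amd1, which makes the aminopropyl donor, fell by 0.30 (SE 0.06, adjusted p 0.0177); it has a near-identical copy, Amd2, at -0.28 (adjusted p 0.158), so reads may have been split between them. The fourth, Oaz2, an antizyme that inhibits ornithine decarboxylase, fell by 0.51 (SE 0.10, adjusted p 0.0214). The polyamine genes that fell therefore include the synthesis enzymes Srm, Sms and Amd1 and an inhibitor of the pathway's first enzyme.

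Among 15 partners, antagonists and cofactors of Myc, 3 rose (20%, against 9.44% of all genes) and 0 fell. Mxd1, which competes with Myc for Max and represses at E-boxes, had 2.46, 2.98 and 2.84 in MIG and 3.26, 4.25 and 3.87 in MIG-Hhex. Every MIG-Hhex library exceeded every MIG library, and the rise was 2.05-fold, a log2 difference of 1.03 (SE 0.13, limma adjusted p 0.00483). Mxi1, another repressor of the same family, rose by 0.46 (SE 0.11, adjusted p 0.0351), and Mlx, the partner of the Mondo proteins, by 0.23 (SE 0.06, adjusted p 0.0463). With the GC trend removed, 2 of the 15 rose, 1 fell and the list's median was -0.01, against 0.08 before. Within C5LWPANXX alone 1 rose, and without the flow cell term 0 did. The following were named after their values were seen. Max differed by -0.13 (limma adjusted p 0.114). Mycn differed by -0.44 (adjusted p 0.207), and it passed with the replicate block (adjusted p 0.0329).

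**Figure D4:**
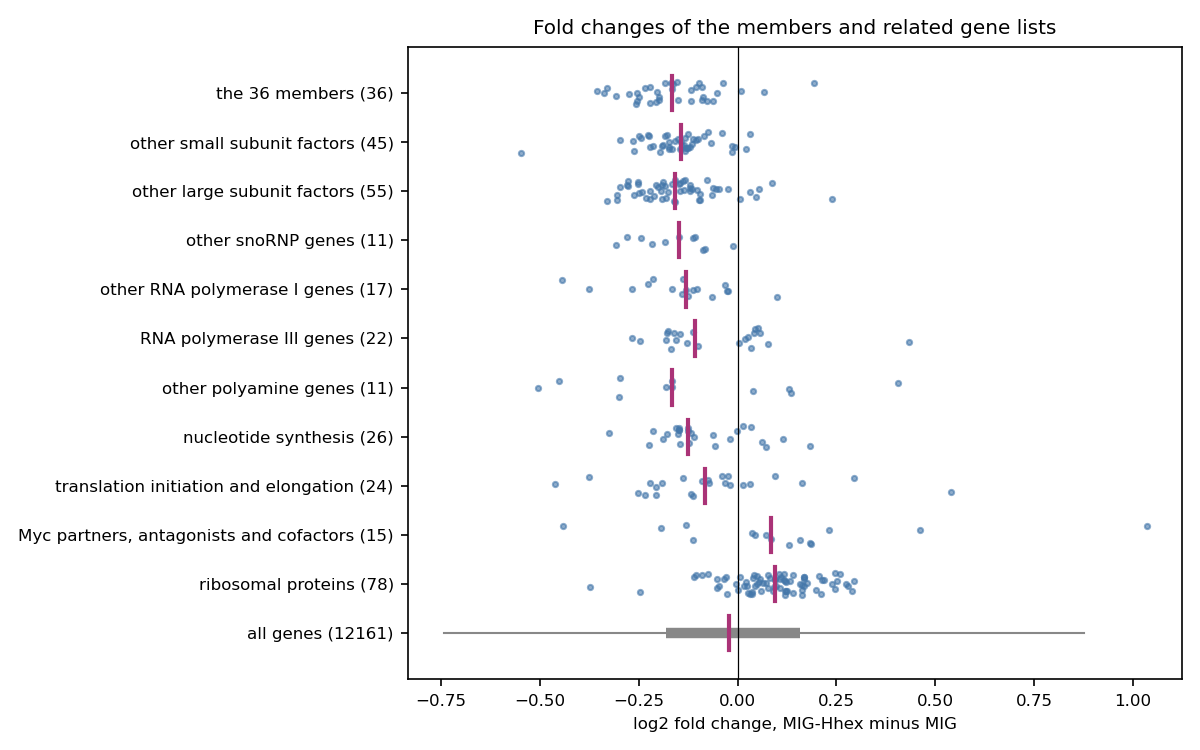
Log2 fold change (MIG-Hhex minus MIG) of every gene in each list, with the number of genes in brackets and the median as an upright bar; for all 12161 genes the thick line spans the middle 50% and the thin line the middle 90%. The medians of the members (-0.17) and of the other assembly lists lie left of 0, while those of the ribosomal proteins (0.10) and of the Myc partners (0.08) lie right of it.

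Markers of cell types that the culture could hold moved in the same comparison. Over all genes 9.44% were called higher and 8.52% lower, beside which the counts of these short lists stand. Of 10 monocyte, macrophage and dendritic cell markers 6 rose and 1 fell, with a summed linear level of 203 to 269 in MIG and 212 to 339 in MIG-Hhex. Of 14 measured neutrophil markers 6 rose and 2 fell (7672 to 10121 in MIG, 6579 to 9943 in MIG-Hhex). Of 7 mast cell and basophil markers 1 rose and 3 fell (203 to 429 and 162 to 275), and of 10 stem and progenitor markers 1 fell, Meis1, by 0.79 (240 to 364 and 208 to 343). Erythroid (8 markers) and megakaryocyte (7 markers) lists had 2 risers each, with 2 and 1 that fell; their sums ran from 205 to 266 and 65 to 93 in MIG and from 201 to 258 and 72 to 97 in MIG-Hhex. Of 10 lymphoid markers 2 were measured, of which 1 fell and 0 rose. Their sum was 1.85 to 6.90 in MIG and 0.33 to 1.56 in MIG-Hhex, very low beside the other lists. Within pairs, the monocyte, macrophage and dendritic cell sum was higher with Hhex in all 3, while the neutrophil, mast cell and basophil, stem and progenitor, erythroid and lymphoid sums were lower in all 3. The neutrophil sum ran against most of its markers, whose median pair differences were 0.48, 0.45 and 0.34. For the erythroid list those medians were 0.33, 0.45 and -0.09. As a share of all genes, the WT3 neutrophil sum was 2.03% in MIG and 2.04% in MIG-Hhex. The megakaryocyte sum was lower in WT3 and higher in the other pairs. As unpaired ranges, the sums overlapped between the groups in each list but the lymphoid one. The part of cell type in the members' differences was not tested.

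Differences between replicate WT3 and the others covered a wider range among the members than those with Hhex. Flow cell C3RJFACXX holds WT3 alone, so flow cell and replicate cannot be told apart. The WT3 libraries minus the others ran from -0.79 (Ncl) to 0.50 (Wdr12) on the log2 scale, while the differences with Hhex ran from -0.35 to 0.19. Across the 36 genes the WT3 difference had a Spearman correlation of -0.58 with transcript length, and across 11740 genes -0.55; these points share the same 6 libraries, so the values are descriptions. Long members such as Utp20 and Polr1a were low in WT3, and short ones such as Srm and Rrp9 were high. The difference with Hhex had a correlation of 0.15 with length over the members and 0.06 over all genes. With the GC content of the transcript it had 0.06 over the members and 0.30 over all genes. The members' median GC content was 50.9%, close to 50.1% for all genes.

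**Figure D5:**
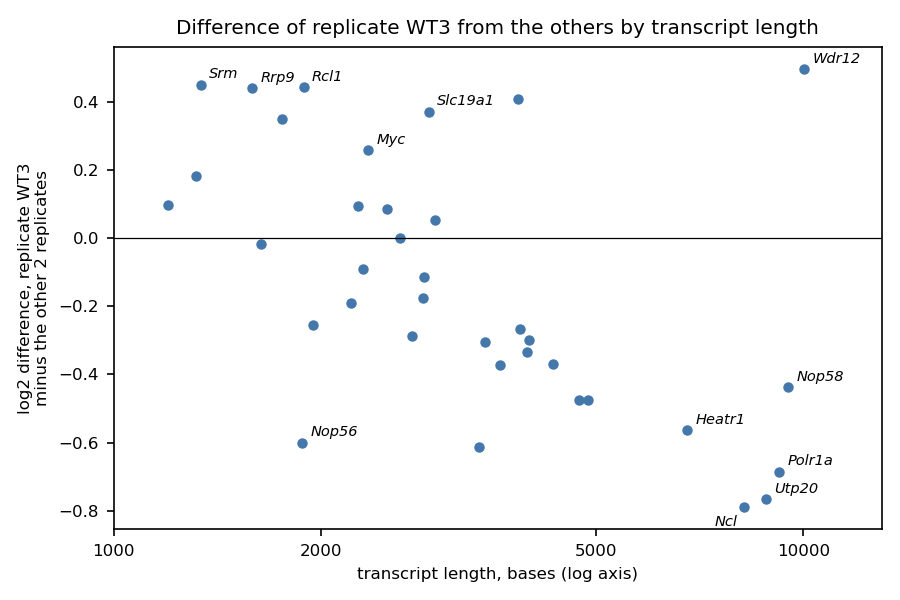
Log2 difference between replicate WT3 (flow cell C3RJFACXX) and the other replicates for each of the 36 genes, against the length of the longest protein-coding transcript in bases on a log axis. Values tend to fall from short to long transcripts, as from 0.45 for Srm to -0.77 for Utp20. Exceptions include the long Wdr12 (0.50), Bysl (3854 bases, 0.41) and the short Nop56 (1877 bases, -0.60). Which transcript of a gene the cells made was not measured, so the lengths drawn may exceed those present.

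Some members are hosts of small nucleolar RNAs. Annotated snoRNA genes lie inside 8 of the 36 (22.2%), against 211 of 11740 measured genes with a position (1.80%). snoRNAs guide the methylation and pseudouridylation of rRNA and are cut from the introns of such host genes. Nop56 holds 5, Nop58 holds 4 (Snord70 and Snord11 among them), and Ncl, Gnl3 and Wdr43 hold 3 each. Tsr1 holds 2, and Odc1 and Dkc1 hold 1 each. Of these 8 hosts, Gnl3 and Wdr43 are among the genes that fell. The levels of the snoRNAs themselves were not analysed here.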

How the data were processed

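The authors deposited 1 table of log2 values, 1 per gene and library, in 6 libraries. The submitters' processing notes name Subread, featureCounts, edgeR and limma and the build mm10. For normalization, strand, versions and step order, nothing is given in the sources used here. These deposited values look scaled per gene length, and an overall change of RNA per cell may have been removed. Counts cannot be recovered, so no count model or counting interval was used.

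Groups came from the vector labels. The deposited log2 values were fitted with limma 3.58.1 (R 4.3.3), with terms for flow cell and vector, eBayes with a mean-variance trend, two-sided p-values adjusted by Benjamini-Hochberg over 12161 genes and a threshold of 0.05. A filter on values at the library minimum removed 0 genes. The code was tested on simulated data. The p-values measure the spread between these libraries. Replicate numbers were taken to pair the libraries. Deviations from the group means correlated within replicate WT3 at 0.742, within WT691 at 0.585 and within WT703 at 0.656, above the minimum of 0.1. These deviations still hold the flow cell difference, so the correlations cannot show pairing apart from flow cell. Libraries of unlike replicate number were not compared.

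Transcript length and GC content come from GENCODE M21 (96.5% of genes matched), and promoter windows from RefSeq; 6 members had no window. Library values are given for Myc, the members past the threshold and, in roles without one, the 2 with the smallest p; of other lists, up to 3 genes past the threshold with the smallest p are named, and any further name was chosen after its value was seen. The members and lists were chosen with earlier results of these data known. Alternatives covered the batch term, pairing, GC content, variance model, scaling, a filter on low values and leaving out libraries.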

Additional observations from a re-analysis of the deposited data

How the results depend on the processing

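Depth is unknown, and which members were called varied with the setting. Members called lower numbered 0 without the flow cell term, 0 without the mean-variance trend, 3 in flow cell C5LWPANXX alone, 14 with the replicate block and the GC trend removed, and 0 to 3 when a replicate or library was left out. The 0 came without replicate WT703, without its MIG library and without the WT691 MIG-Hhex library. Removing the GC trend alone left 9, of which 6 were the same genes: Gnl3, Wdr43 and Ltv1 were lost. Over every gene the count called lower was 98 without the flow cell term, 638 without the trend, 519 in C5LWPANXX alone, 1600 with the replicate block and the GC trend removed, and 270 to 634 with a library or replicate left out; called higher it was 119, 698 in C5LWPANXX alone and 355 to 835 with one left out. The cause was not tested.

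The replicate block alone gave 13 members and 1473 genes called lower; it ended the call of 0 of the 9 and added Nop58, Dkc1, Rcl1 and Noc2l. With the block and the GC trend removed, Myc was -0.21 and passed the test (limma adjusted p 0.0279). With the GC trend removed, block or not, Polr1c was -0.063, Fbl was -0.045 and Heatr1 was 0.0088, none of them called. With a library or replicate left out, Polr1a ran from -0.21 to 0.0079, Polr1c from -0.099 to 0.093, Fbl from -0.12 to 0.21, Heatr1 from -0.14 to 0.032 and Rrp1b from -0.088 to 0.0072. The members' median (-0.21 to -0.11 with one left out) stayed negative in every alternative run. Promoters with CACGTG numbered 6, and those with CACGTG or CACGCG 14.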

Other observations

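Smox, spermine oxidase, which turns spermine back into spermidine, stood on the other side from the polyamine genes that fell, with 2.03, 1.88 and 2.19 in MIG and 2.32, 2.48 and 2.52 in MIG-Hhex. Its groups did not overlap and its log2 difference was 0.40 (SE 0.12, limma adjusted p 0.0643, with the replicate block 0.0419). It was chosen after its value was seen.

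Several members overlap a measured neighbour on the opposite strand: Nop56 with Idh3b, Dkc1 with Mpp1, Heatr1 with Lgals8, Bysl with Ccnd3, Tsr1 with Srr, Bop1 with Mroh1, Wdr12 with Carf and Gnl3 with Pbrm1. Pbrm1, the neighbour of the called gene Gnl3, differed by -0.05 (limma adjusted p 0.576).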
